A study of Homo sapiens with 4 samples.

Results

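Of 10 genes that respond to low oxygen, 9 had a transcript in the ribosome footprint data, out of 16292 transcripts listed in all. They are ANKRD37, ADM, BNIP3, VEGFA, NDRG1, DDIT4, EGLN1, P4HA1 and KDM3A, matched by gene symbol in GENCODE release 29, and BNIP3L is not analysed here. The set was chosen by the footprint levels of ANKRD37 and ADM, which moved in opposite directions in the RPL4 mutant. Ratios of mutant over wild type, and differences of drug responses built from them, are therefore given for these genes as a description, with no test. The filter on low values asked for 5 RPKM or more on average across the 4 libraries. It kept 9612 transcripts, among them all 9 of these genes.

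The cells were HEK293, an established human embryonic kidney line, and ribosome-protected RNA was sequenced from 4 groups with 1 library in each. The groups were RPL4 mutant cells with erythromycin, RPL4 mutant cells without it, wild type cells with erythromycin and wild type cells without it. Erythromycin is an antibiotic that lodges in the tunnel through which nascent peptides leave the bacterial ribosome, and RPL4 sends a loop into the same tunnel. The labels describe stable lines carrying GFP, wild type L4 or a Δloop form, infected with lentivirus for an RPL4 or a scrambled short hairpin RNA. Cells were treated before lysis with cycloheximide or lactimidomycin, which stop elongating or initiating ribosomes. Which line, hairpin and inhibitor a given library had is not labelled, nor is it stated how many clones a line comprised or which dose of erythromycin was used. No group is labelled as kept in low oxygen.

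Cells sense oxygen through prolyl hydroxylases, which mark the alpha subunit of hypoxia-inducible factor (HIF) for destruction by the VHL ubiquitin ligase. When oxygen falls, HIF alpha escapes, pairs with ARNT and binds a short DNA core, ACGTG or GCGTG, near its target genes. The targets raise glycolysis, blood vessel growth, removal of mitochondria and collagen modification, and several of them act back on oxygen sensing itself. Some are also driven by other signals, such as amino acid shortage, glucocorticoids or DNA damage, and are read in normal oxygen too.

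Promoter sequence of 300 bases (250 before and 50 after the transcription start) was available from RefSeq (GRCh38.p14) for 7 of the genes. Those of the 2 genes that moved apart in the mutant, ANKRD37 and ADM, are shown in full. Their windows differ in this core, and sequence outside the windows was not searched. Whether the core bears on the footprint levels was not tested. Capitals mark ACGTG or GCGTG on either strand, so that the palindrome CACGTG counts once per strand. The first lies at chr4:185396591-185396890 and the second at chr11:10304823-10305122, both on the plus strand.
ANKRD37: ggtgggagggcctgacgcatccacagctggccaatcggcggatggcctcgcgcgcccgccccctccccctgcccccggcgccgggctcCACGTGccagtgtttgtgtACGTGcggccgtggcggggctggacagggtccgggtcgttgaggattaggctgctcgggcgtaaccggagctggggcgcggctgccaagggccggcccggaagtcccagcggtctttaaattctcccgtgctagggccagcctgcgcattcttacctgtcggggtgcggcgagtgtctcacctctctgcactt
ADM: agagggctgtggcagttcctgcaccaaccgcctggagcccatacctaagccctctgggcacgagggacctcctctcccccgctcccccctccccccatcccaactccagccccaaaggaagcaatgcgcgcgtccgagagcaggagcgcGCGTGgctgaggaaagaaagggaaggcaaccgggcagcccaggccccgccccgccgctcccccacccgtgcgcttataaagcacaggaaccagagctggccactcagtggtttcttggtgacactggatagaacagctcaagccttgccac

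The ANKRD37 window held ACGTG at 3 positions, counting both strands, and GCGTG at 0, while the ADM window held ACGTG at 0 and GCGTG at 1. Among 35116 RefSeq promoters of the same length, 21.4% held ACGTG, 36.5% held GCGTG, 48.4% held either, and 1.98% held ACGTG at 3 or more positions. ACGTG was present in the windows of 5 of the 7 genes, all but ADM and KDM3A. GCGTG was present in those of 4 of the 7, namely ADM, KDM3A, DDIT4 and BNIP3. The core (capitals) with the bases beside it is shown for the 5 genes on the strand that reads ACGTG, with palindromes shown once, so that the flanks can be compared. The cores lie at chr4:185396680-185396684 and chr4:185396698-185396702 for ANKRD37 (−161 and −143 bases from the start), chr10:72273799-72273803 for DDIT4 (−125), chr1:231422296-231422300 for EGLN1 (−13), chr10:131982052-131982056 for BNIP3 (−133) and chr10:73096948-73096952 for P4HA1 (−86). ANKRD37 and DDIT4 are read on the plus strand of the genome, EGLN1 and BNIP3 on the minus strand and P4HA1 on the plus strand, antisense to its gene.
ANKRD37: cgggctccACGTGccagtgtt
ANKRD37: gtttgtgtACGTGcggccgtg
DDIT4: cgttgcttACGTGcgcccgga
EGLN1: cgtggtgtACGTGcagagcgc
BNIP3: cgcgccgcACGTGccacacgc
P4HA1: ccctcgctACGTGagctcgat

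Libraries held 993461 reads in the mutant with erythromycin, 604506 in the mutant without, 2555613 in wild type with it and 2965243 in wild type without. RPL4 was at 1439 RPKM in the mutant with erythromycin, 1707 in the mutant without, 2586 in wild type with it and 2515 in wild type without, where RPKM is reads scaled by coding length and by the library total. RPL4 fell in the mutant by 0.72 on the log2 scale (SE 0.150, limma, adjusted p = 0.018), 1 of 187 genes, or 1.95%, that passed for genotype. That call was lost with treatment left out of the model (limma, adjusted p = 0.0821) and with no variance trend (limma, adjusted p = 0.422). The labels do not say which libraries carried introduced L4, so its reads were not separated from those of the cells' own RPL4. Of 9 genes that mark HEK293 cells, 5 were at 20 RPKM or more in every library, among them VIM, INA and NEFL, while NEFM and PAX2 stayed under 3 RPKM. Of 14 markers of liver, blood, fibroblast, skin, muscle and vessel cells, 10 had a row, and their summed level was 7.81 and 19.5 RPKM in the mutant with and without erythromycin, against 6.55 and 12.6 RPKM in wild type with and without it. All 4 libraries are footprints, so mRNA level and translation cannot be told apart, nor can fewer cells with a footprint from fewer footprints per cell.

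ANKRD37 had the highest mean level of the 9 genes and varied most. It encodes a small ankyrin-repeat protein (transcript ENST00000335174) and lies on chromosome 4 from 185396021 to 185400628 (GRCh38, plus strand), with 477 coding bases. ANKRD37 was at 794 RPKM in the mutant with erythromycin, 535 RPKM in the mutant without, 114 RPKM in wild type with erythromycin and 471 RPKM in wild type without, from 378, 155, 139 and 669 reads in the same order. The wild type library with erythromycin stood below the other 3, whose counting intervals began at 436 RPKM or higher and ended at 879 RPKM or lower, against 95.5 to 134 RPKM in that library. Between the mutant and wild type without erythromycin the intervals overlapped, at 454 to 627 RPKM in the mutant and 436 to 508 RPKM in wild type. Exons of UFSP2, a protease of the UFM1 system on the opposite strand, cover 205 of the coding bases of ANKRD37, and the sources do not say whether strand was used in counting. UFSP2 was at 7.85 and 5.87 RPKM in the mutant with and without erythromycin, against 13.6 RPKM in wild type both with and without it. The part of the overlap in the ANKRD37 values was not tested.

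ADM went the other way across the same libraries, at a far lower level. It encodes the precursor of adrenomedullin, a secreted peptide that widens blood vessels (transcript ENST00000528655), and lies on chromosome 11 from 10304680 to 10307397 with 558 coding bases. ADM was at 12.6 RPKM in the mutant with erythromycin, 17.8 RPKM in the mutant without, 45.6 RPKM in wild type with erythromycin and 27.8 RPKM in wild type without. These values rest on 7, 6, 65 and 46 reads. Both mutant libraries were below both wild type libraries, but the counting interval of the mutant without erythromycin, 6.53 to 38.7 RPKM, spanned the level of wild type without it (interval 20.4 to 37.1 RPKM). With erythromycin the intervals did not overlap, at 5.08 to 26.0 RPKM in the mutant and 35.2 to 58.1 RPKM in wild type.

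**Figure D1:**
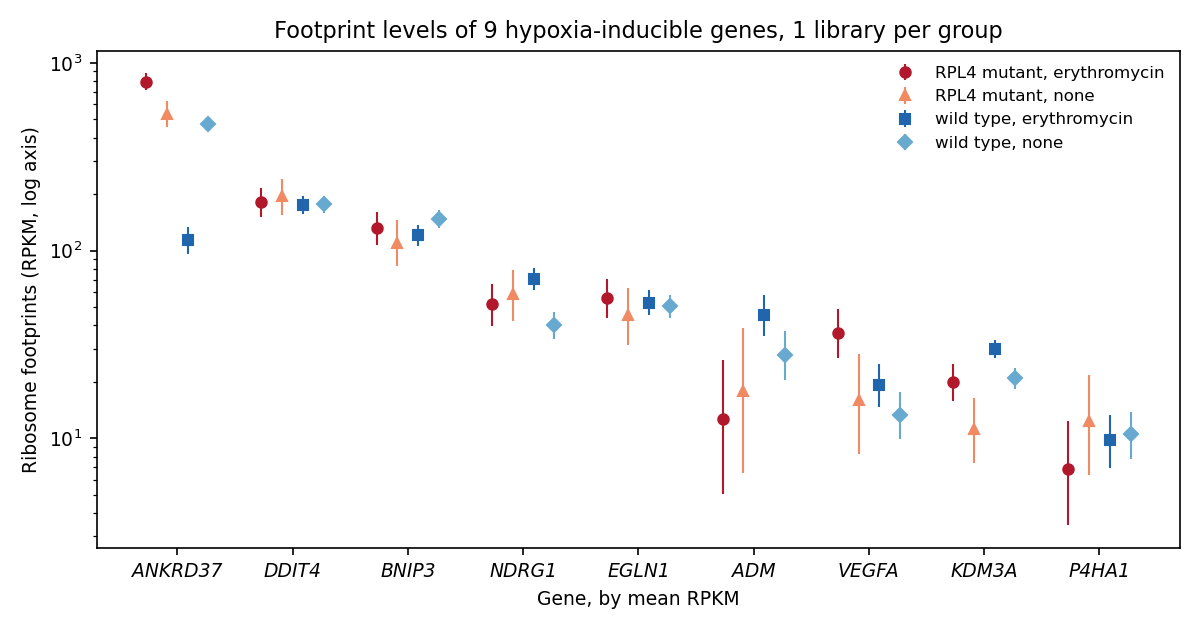
Footprint level of each gene in RPKM on a log axis, with genes in order of mean RPKM, 1 point per library and bars for 95% counting intervals. ANKRD37 in wild type with erythromycin (114 RPKM) sits below its other 3 libraries, and the 2 ADM points of the mutant (12.6 and 17.8 RPKM) carry the widest bars of that gene.

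Mutant and wild type cells, as the labels name them, were compared at each treatment. Whether the wild type libraries came from cells with an introduced gene or hairpin is not labelled. With erythromycin present, ANKRD37 was 6.65-fold higher in the mutant and ADM was 3.57-fold lower, and the other 7 genes lay within 2-fold. VEGFA was higher in the mutant, and NDRG1 and KDM3A were lower, by amounts that exceeded counting error. Without erythromycin 0 of 9 genes reached 2-fold. Values are log2 ratios of RPKM plus 1, set so that the median gene is at 0. Brackets hold 95% counting intervals. Each group had 1 library, so the values compare libraries and have no replicate check. The intervals are for reads without the added 1 RPKM.

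With erythromycin ANKRD37 had a mutant over wild type ratio of 2.73 [2.46, 3.04] and ADM one of −1.84 [−3.28, −0.79]. Past 2-fold were 2 of 9 genes, 1 higher and 1 lower, where 9.28% of all genes tested were, 7.02% higher and 2.26% lower. These are the 2 genes that the choice of the set rests on, so nothing is read from that count. VEGFA, the main growth factor for blood vessels, was at 36.6 RPKM in the mutant with erythromycin, against 19.3 RPKM in wild type with it, a log2 ratio of 0.83 [0.27, 1.44]. KDM3A, a histone H3 lysine demethylase that itself needs oxygen, was at 20.0 RPKM in the mutant and 30.0 RPKM in wild type, a log2 ratio of −0.63 [−1.02, −0.29]. NDRG1, a stress-induced protein linked to differentiation and lipid traffic, was at 51.8 RPKM in the mutant and 70.7 RPKM in wild type, a log2 ratio of −0.50 [−0.95, −0.09]. Intervals were above 0 for 2 of the 9 genes and below 0 for 3, against 33% of all genes with known reads, 16.2% above and 16.9% below. These counts include ANKRD37 and ADM as well, so nothing is read from them.

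For the remaining 4 genes with erythromycin the intervals spanned 0. DDIT4, which restrains the growth kinase mTORC1, was at 181 RPKM in the mutant and 175 RPKM in wild type, a log2 ratio of −0.01 [−0.32, 0.29]. BNIP3, a mitochondrial outer membrane protein that marks mitochondria for removal, was at 132 RPKM in the mutant and 120.4 RPKM in wild type (0.07 [−0.28, 0.41]). EGLN1, the main prolyl hydroxylase that senses oxygen, was at 55.8 RPKM in the mutant and 52.8 RPKM in wild type (0.01 [−0.40, 0.42]). P4HA1, the catalytic subunit of collagen prolyl 4-hydroxylase, was at 6.90 RPKM in the mutant and 9.75 RPKM in wild type (−0.51 [−1.67, 0.43]), from 11 and 40 reads. Over the 9 genes the median log2 ratio was −0.01, with 4 above 0, where 50% of all genes tested were, and 5 below, beside a median of 0 for all genes.

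**Figure D2:**
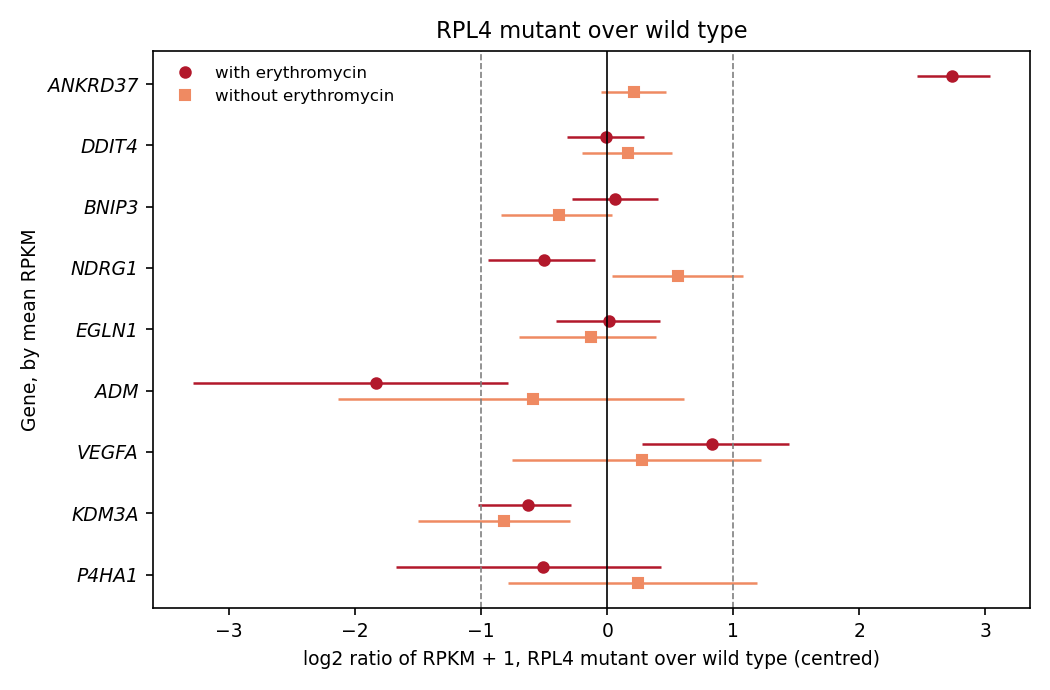
The log2 ratio of RPKM plus 1 of RPL4 mutant over wild type for each gene, with erythromycin (circles) and without it (squares). Bars are 95% counting intervals of the reads and dashed lines mark 2-fold. ANKRD37 at 2.73 and ADM at −1.84 are the 2 points beyond 2-fold, both with erythromycin.

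Without erythromycin the same comparison gave smaller differences. Past 2-fold were 0 of the 9 genes, where 8.6% of all genes tested were, 5.29% higher and 3.32% lower. KDM3A was lower here too, at 11.2 RPKM in the mutant and 20.9 RPKM in wild type, a log2 ratio of −0.82 [−1.50, −0.30]. NDRG1 was higher, at 58.6 RPKM in the mutant and 40.1 RPKM in wild type (0.56 [0.04, 1.08]), the opposite of its sign with erythromycin. BNIP3 was at 110.3 RPKM in the mutant and 147 RPKM in wild type (−0.39 [−0.84, 0.04]). The intervals of ANKRD37 (0.21 [−0.05, 0.46]) and ADM (−0.59 [−2.14, 0.61]) both spanned 0. The mutant's values chose these genes, so this is a description with no test. VEGFA (0.27), P4HA1 (0.24), DDIT4 (0.16) and EGLN1 (−0.13) had intervals that spanned 0 as well. Intervals were above 0 for 1 gene and below 0 for 1, against 18.8% of all genes with known reads, 9.5% above and 9.3% below. The 9 genes include ANKRD37 and ADM, so nothing is read from counts over them.

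The drug was first compared with no drug in wild type cells. ANKRD37 was 4.08-fold lower with the drug, whereas NDRG1, ADM and KDM3A were higher by less than 2-fold and beyond counting error. BNIP3 was slightly lower. Past 2-fold was 1 of the 9 genes, which was lower, where 3.27% of all genes tested were, 1.73% higher and 1.54% lower. The log2 ratio of ANKRD37 was −2.03 [−2.31, −1.77], and it shares the wild type library with erythromycin with the mutant comparison that chose the gene. The same holds for ADM, so nothing is read from counts that include either gene. NDRG1 was at 70.7 RPKM with erythromycin and 40.1 RPKM without (0.82 [0.52, 1.15]). ADM was at 45.6 RPKM with erythromycin and 27.8 RPKM without (0.71 [0.16, 1.31]).

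KDM3A and VEGFA were also higher with the drug in wild type cells. KDM3A was at 30.0 RPKM with erythromycin and 20.9 RPKM without, a log2 ratio of 0.51 [0.29, 0.78] from 305 and 247 reads. VEGFA was at 19.3 RPKM with erythromycin and 13.3 RPKM without (0.51 [−0.02, 1.12]), an interval that spans 0. BNIP3 was at 120.4 RPKM with erythromycin and 147 RPKM without (−0.27 [−0.52, −0.03]). DDIT4 (0.00 [−0.22, 0.23]) and EGLN1 (0.08 [−0.23, 0.38]) were within narrow intervals around 0, and P4HA1 was at −0.08 [−0.73, 0.54]. Intervals were above 0 for 3 of the 9 genes and below 0 for 2, against 28.1% of all genes with known reads, 14.2% above and 13.9% below, and the median of the 9 was 0.08. These interval counts include ADM and ANKRD37, so nothing is read from them.

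In RPL4 mutant cells VEGFA was the 1 gene of 9 past 2-fold with the drug, and it was higher, where 9.61% of all genes tested were past it, 6.22% higher and 3.39% lower. VEGFA was at 36.6 RPKM with erythromycin and 16.0 RPKM without (1.09 [0.19, 2.19]), from 45 and 12 reads. KDM3A was at 20.0 RPKM with erythromycin and 11.2 RPKM without (0.73 [0.13, 1.47]). ANKRD37 was higher with the drug, at 794 RPKM against 535 RPKM without (0.52 [0.24, 0.80]). ADM, with 7 reads with erythromycin and 6 without, gave −0.52 [−2.34, 1.30], an interval that spans more than 2-fold either way.

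The other 5 genes of the mutant had intervals that spanned 0. P4HA1 was at −0.81 [−2.22, 0.41] from 11 and 12 reads, and NDRG1 at −0.23 [−0.82, 0.37]. EGLN1 was at 0.25 [−0.35, 0.88], BNIP3 at 0.20 [−0.29, 0.71] and DDIT4 at −0.15 [−0.56, 0.27]. Intervals were above 0 for 3 genes and below 0 for 0, against 14.9% of all genes with known reads, 7.23% above and 7.69% below. ANKRD37 is 1 of the 3, so nothing is read from this count. The VEGFA value fell below 2-fold with a pseudocount of 5 RPKM, at 0.94.

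**Figure D3:**
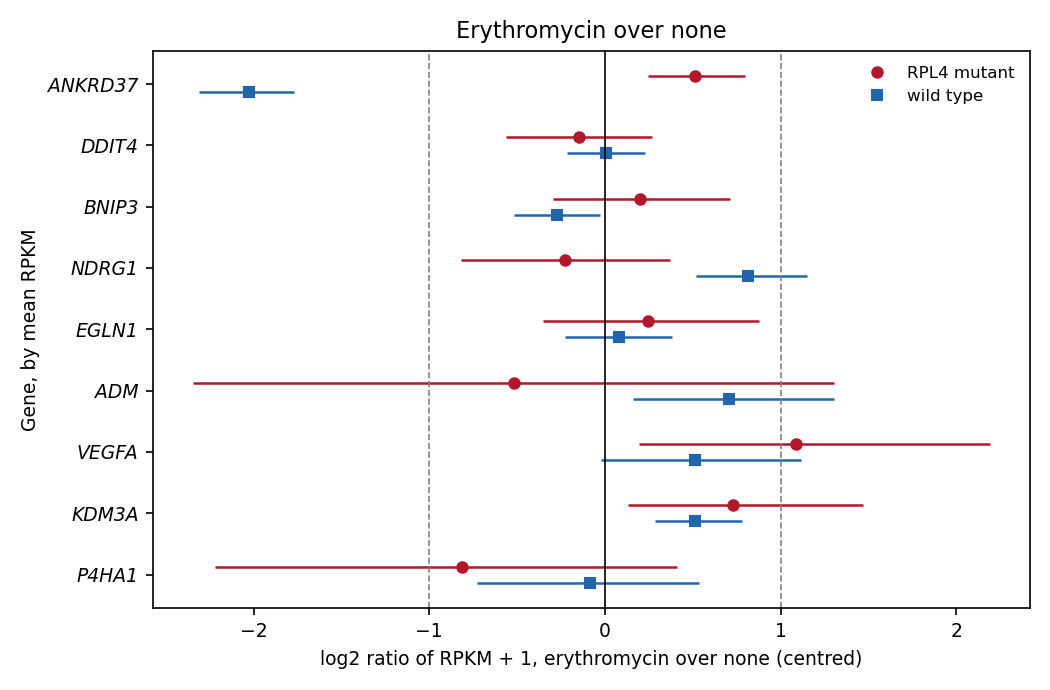
The log2 ratio of RPKM plus 1 of erythromycin over none for each gene, in the RPL4 mutant (circles) and wild type (squares). Bars are 95% counting intervals of the reads and dashed lines mark 2-fold. KDM3A lies above 0 in both genotypes (0.73 in the mutant and 0.51 in wild type), while ANKRD37 lies on opposite sides (0.52 and −2.03).

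The responses of the genotypes were then subtracted, mutant minus wild type, which uses all 4 libraries at once. It equals the mutant over wild type ratio with erythromycin minus that without, so for ANKRD37 and ADM it holds the values that chose them, and nothing is read from their size or from counts that include them. ANKRD37 differed by 2.54 [2.18, 2.93]. NDRG1 differed by −1.04 [−1.71, −0.42]. ADM differed by −1.22 [−2.94, 0.39], an interval that spans 0. Past 2-fold were 3 of 9 genes, 1 up and 2 down, where 13.9% of all genes tested were, 8.34% up and 5.58% down. The NDRG1 value came within 2-fold with a pseudocount of 5 RPKM, at −0.97. Of the 9 differences 5 were above 0, where 50.3% of all genes tested were. Responses had opposite signs in the genotypes for ANKRD37, ADM, NDRG1, BNIP3 and DDIT4, and 49.4% of all genes tested had opposite signs. DDIT4 was so close to 0 in wild type that its sign there changed with the centring and the filter (0.00 as given and −0.01 without centring). For KDM3A the difference was 0.21 [−0.43, 0.92] and for VEGFA 0.57 [−0.48, 1.66], so equal and unequal responses are both within the intervals. BNIP3 (0.47), EGLN1 (0.17), DDIT4 (−0.15) and P4HA1 (−0.73) had intervals that spanned 0.

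**Figure D4:**
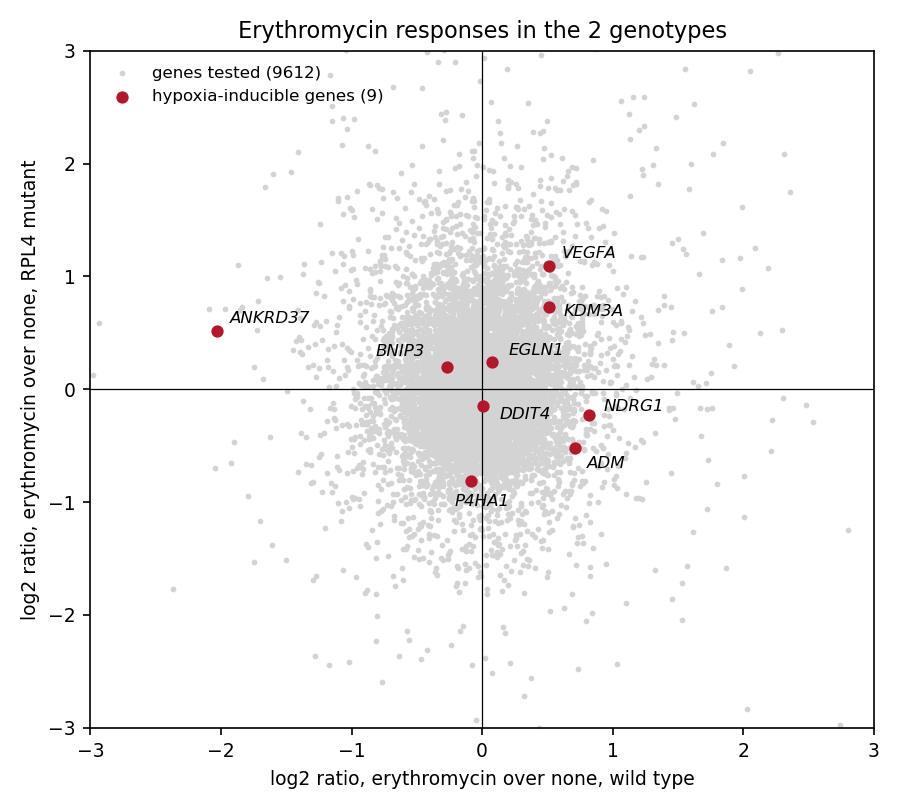
The log2 ratio of erythromycin over none in the RPL4 mutant (vertical axis) against that in wild type (horizontal axis) for the 9612 genes tested in grey and the 9 hypoxia-inducible genes in red, with 56 genes outside the plotted range. VEGFA (1.09 in the mutant and 0.51 in wild type) and KDM3A lie in the upper right, and ANKRD37 lies far to the left.

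Over both genotypes together, the effect of erythromycin was tested with limma's additive model, which uses the difference between the responses as its error and has 1 residual degree of freedom. ANKRD37 and ADM were left out of this test because the mutant's values chose them. Of the other 7 genes 0 passed at an adjusted p of 0.05, where 24 of 9612 genes did, or 0.25% (0.239% higher and 0.0104% lower), and 1 of the 7 had an unadjusted p under 0.05, where 6.18% of all genes tested did. VEGFA was higher by 0.80 on the log2 scale (SE 0.302, limma, adjusted p = 0.63) and was higher in both genotypes. KDM3A was higher by 0.62 (SE 0.296, limma, adjusted p = 0.807), again in both.

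Levels differed more between the genes than within any of them. The mean over the 4 libraries, per kilobase and so comparable between genes, was 479 RPKM for ANKRD37, 182 for DDIT4, 127 for BNIP3, 55.3 for NDRG1, 51.1 for EGLN1, 25.9 for ADM, 21.3 for VEGFA, 20.5 for KDM3A and 9.88 for P4HA1. Within a gene, the highest library exceeded the lowest by 7.0 times for ANKRD37, 3.61 times for ADM, 2.74 times for VEGFA and 2.67 times for KDM3A. DDIT4 varied least, by 1.11 times, and all its counting intervals overlapped. EGLN1 (1.23 times) and BNIP3 (1.33 times) followed. The order changed between libraries. ANKRD37 was highest in 3 libraries, and in wild type with erythromycin it was below DDIT4 (175 RPKM) and BNIP3 (120.4 RPKM). NDRG1 and EGLN1 changed places, as did ADM, VEGFA and KDM3A. P4HA1 was lowest in 3 libraries, and in the mutant without erythromycin it was above KDM3A (12.4 against 11.2 RPKM).

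Of the genes, 3 share a chromosome, in GRCh38 coordinates. DDIT4 (72273920 to 72276036), P4HA1 (73007217 to 73096974) and BNIP3 (131966455 to 131982013) lie on chromosome 10. VEGFA lies on chromosome 6 (43770184 to 43786487), NDRG1 on chromosome 8 (133237171 to 133302022), EGLN1 on chromosome 1 (231363751 to 231425044) and KDM3A on chromosome 2 (86440647 to 86492716). Coding GC content had a median of 59.5% over the 9 genes, from 41.6% in P4HA1 to 65.1% in DDIT4, beside 52.2% for all genes tested. Coding length had a median of 1185 bases, beside 1311 for all genes tested. Exons of the antisense transcript DDIT4-AS1 cover 274 coding bases of DDIT4, and those of AL731563.2 cover 47 of P4HA1, and whether strand was used in counting there is not stated either.

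The genes with the most similar profile over the 4 libraries were found by Euclidean distance between centred log2 values, among 5536 genes that averaged 20 RPKM or more. For ADM they were BAIAP2 (distance 0.243), the heat-shock protein HSPH1 (0.393) and GNG7 (0.430), the last with 2 reads in each mutant library. BAIAP2 was at 20.0 and 21.9 RPKM in the mutant with and without erythromycin, against 60.5 and 38.4 RPKM in wild type with and without it. For ANKRD37 they were TTC9 (0.461), the mitochondrially encoded oxidase subunit MT-CO2 (0.690) and the mitochondrial carrier SLC25A23 (0.759). TTC9 was at 109.8 and 76.7 RPKM in the mutant with and without erythromycin, against 21.1 and 58.0 RPKM in wild type with and without it. These genes were picked for that likeness, so it is a description with no test.

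Other genes induced by hypoxia, a list of 40 of which 28 were tested, were mostly above 0 with erythromycin in wild type cells. There 24 of 28 were above 0, where 50% of all genes tested were, and their median log2 ratio was 0.41. Several counting intervals spanned 0, such as those of FAM162A (0.06 [−0.24, 0.35]) and CITED2 (0.08 [−0.16, 0.31]). The list was chosen with earlier results of these data known. All its wild type values come from the same pair of libraries, so the count is a description with no test. In the mutant 17 of 28 were above 0 and their median was 0.14. In wild type 0 were at least 2-fold higher and 1 was at least 2-fold lower, where 1.73% and 1.54% of all genes tested were. In limma's test over both genotypes 0 of 28 passed for erythromycin and 4 had an unadjusted p under 0.05, where 6.18% of all genes tested did. The count of 24 of 28 and the sign of the median in wild type were the same without centring and scaled to a common sum.

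The 4 genes of that list with the highest mean are named here. FAM162A, a mitochondrial protein, was at 169 and 174 RPKM in the mutant with and without erythromycin, against 151 and 147 RPKM in wild type with and without it. BHLHE41, a clock-linked transcriptional repressor, was at 356 and 114 RPKM in the mutant with and without erythromycin, against 72.4 and 37.5 RPKM in wild type with and without it. It rose in the mutant by 1.92 over both treatments (SE 0.251, limma, adjusted p = 0.000201), and both mutant libraries were above both wild type libraries. That call was lost with treatment left out of the model (limma, adjusted p = 0.173), and for erythromycin its adjusted p in limma was 0.0503. HMOX1, which breaks down haem, was at 94.0 and 66.8 RPKM in the mutant, against 175 and 131 RPKM in wild type, and CITED2, which competes with HIF for its coactivators, was at 74.2 and 67.9 RPKM in the mutant, against 138 and 133 RPKM in wild type, in each case with and without erythromycin. Neither passed for genotype (limma, adjusted p = 0.0563 for HMOX1 and 0.0594 for CITED2). BHLHE41 was 1 of 28 that rose for genotype and 0 of 28 fell, where 1.66% and 0.281% of all genes tested did.

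Genes of glucose uptake and glycolysis, which HIF raises in low oxygen, were mostly below 0 in comparisons that use the mutant library with erythromycin. In the others their share was near that of all genes tested, of which 50% were above 0. In the mutant with erythromycin 18 of the 22 tested genes were below 0 against the mutant without, with a median of −0.27, and in wild type 12 of 22 were, with a median of −0.09. For mutant over wild type the median was −0.33 with erythromycin, 17 of 22 below 0, and −0.14 without it, 13 of 22 below 0. These medians were −0.21 and −0.09 over the 16 genes that averaged 20 RPKM or more. ENO1, the enolase of glycolysis, was at 2302 and 2694 RPKM in the mutant with and without erythromycin, against 4497 and 3837 RPKM in wild type with and without it. For genotype 1 of 22 fell and 0 rose, where 0.281% and 1.66% of all genes tested did. The 1 that fell was ENO1, by 0.75 (SE 0.147, limma, adjusted p = 0.0101). That call was lost with treatment left out (limma, adjusted p = 0.0729) and with no variance trend (adjusted p = 0.419). LDHA, which turns pyruvate into lactate, was at 614 and 620.0 RPKM in the mutant, against 909 and 888 RPKM in wild type, and did not pass. The log2 ratios of mutant over wild type with erythromycin were −0.34 for GAPDH and −0.20 for TPI1, which did not pass either. These 4 genes, named for their high mean, were lower in the mutant, but other genes of the list were higher. Without erythromycin 9 of 22 were above 0 in mutant over wild type, and the log2 ratios ran from −0.81 to 0.85.

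The 17 tested genes of oxygen sensing and HIF control had medians from −0.09 to 0.15, beside 0 for all genes. For mutant over wild type the median was 0.15 with erythromycin and −0.09 without, and for erythromycin over none it was 0.03 in the mutant and 0.09 in wild type. Under other filters, scalings and pseudocounts these ran from 0.07 to 0.24 and from −0.14 to −0.04 for mutant over wild type with and without erythromycin, and from 0.03 to 0.09 in the mutant and 0.07 to 0.09 in wild type for the drug. For genotype 1 of 17 fell and 0 rose, where 0.281% and 1.66% of all genes tested did. The 1 that fell was HSP90AB1, a chaperone that binds HIF1A, by 0.83 (SE 0.191, limma, adjusted p = 0.0341). That call was lost with treatment left out (limma, adjusted p = 0.122) and with no variance trend (adjusted p = 0.370). The VHL ligase subunits ELOB (0.48), RBX1 (0.18) and ELOC (−0.44) had these log2 ratios of mutant over wild type with erythromycin, and 0 of them passed. HIF1A itself, chosen after its values were seen, was at 24.1 and 27.2 RPKM in the mutant with and without erythromycin, against 38.8 and 48.2 RPKM in wild type with and without it. Both mutant libraries were below both wild type libraries, and the gene did not pass for genotype (limma, adjusted p = 0.232). Other HIF subunits, also chosen after their values were seen, went both ways. With and without erythromycin, log2 ratios of mutant over wild type were 0.70 and 0.69 for ARNT and 0.56 and 0.84 for EPAS1. For ARNT2 they were −0.73 and −0.21. These genes did not pass for genotype either, and HIF3A was below the filter.

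Receptors for adrenomedullin and VEGF-A were scarcely read, as 2 of the 8 passed the filter. RAMP1, a partner that makes receptors of this family specific, was at 18.0 and 48.1 RPKM in the mutant with and without erythromycin, against 11.4 and 16.6 RPKM in wild type with and without it, from 8, 13, 13 and 22 reads. NRP1, a coreceptor of VEGF-A, was at 12.0 and 11.3 RPKM in the mutant, against 10.2 and 14.8 RPKM in wild type. CALCRL, RAMP2, RAMP3, NRP2 and the others were below the filter. In the receptor list 0 of 2 genes passed limma for either factor, and 1 had an unadjusted p under 0.05 for each, where 12.4% of all genes tested did for genotype and 6.18% for erythromycin.

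In the lists around the other genes 0 passed for either factor, where 1.95% of all genes tested did for genotype and 0.25% for erythromycin. Of 11 tested genes around DDIT4 and mTORC1, 1 had an unadjusted p under 0.05 for genotype, where 12.4% of all genes tested did, and 0 for erythromycin, where 6.18% did. RHEB, the GTPase that switches mTORC1 on, had log2 ratios for erythromycin of −0.20 in the mutant and 0.47 in wild type. YWHAB (−0.59 and 0.09), EIF4EBP1 (0.42 and −0.14) and YWHAZ (−0.02 and 0.14) are given in the same order. Of 9 tested mitophagy partners of BNIP3, 0 passed, with GABARAP at −0.12 in the mutant and −0.16 in wild type and PINK1 at −0.16 and −0.06. GABARAPL2 was at −0.06 and −0.19 and FUNDC1 at 0.18 and 0.23, in the same order. Of 7 tested enzymes and chaperones of collagen, 0 passed, with P4HB, the partner subunit of P4HA1, at −0.08 in the mutant and 0.17 in wild type, PPIB at 0.13 and 0.13, CRTAP at 0.11 and −0.13, and SERPINH1 at −0.56 and 0.25. Of 6 tested paralogs of the 9 genes, 1 had an unadjusted p under 0.05 for erythromycin, where 6.18% of all genes tested did, with NDRG3 at −0.43 in the mutant and −0.25 in wild type, NDRG2 at −0.46 and −0.46, EGLN3 at 0.22 and −0.10 and KDM3B at −0.29 and −0.06. VEGFB, chosen after its values were seen, had 11 reads in the mutant with erythromycin, 0 in the mutant without, 10 in wild type with it and 11 in wild type without.

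**Figure D5:**
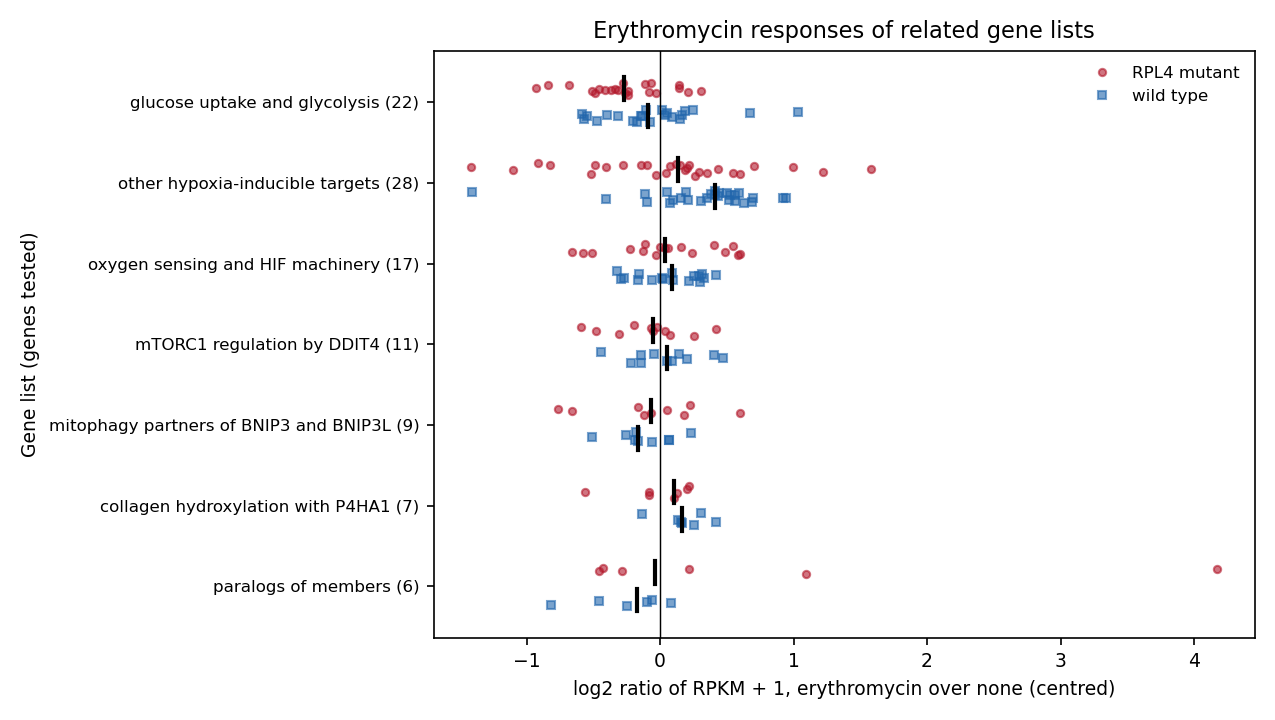
Each point is the log2 ratio of RPKM plus 1 of erythromycin over none for 1 gene of a related list, in the RPL4 mutant (circles, upper row of each list) and wild type (squares, lower row), with black bars for list medians. Other hypoxia-inducible targets in wild type have a median of 0.41, and glycolysis genes in the mutant have a median of −0.27. The point at 4.18 is VEGFB in the mutant, which had 0 reads without the drug, so its place depends on the added 1 RPKM.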

How the data were processed

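Ribosome-protected RNA from HEK293 cells was sequenced in 4 libraries, 1 per group, so single differences have no replicate check and carry no p. The deposited RPKM values were made by the authors, 1 per transcript, and tools listed in the submitters' processing notes were STAR and cutadapt, with build GRCh38. How reads were counted is not stated. Transcripts missing from a library's list were taken as 0.

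RPKM times coding length (stop codon included, GENCODE 29) gave whole reads within 0.001 for 99.2% of matched transcripts in each library, and so the library totals. The length of ANKRD37 was solved as 479 bases, since 477 gave no whole reads. Of the genes tested, 120 had no known reads and entered no count of intervals. Counting intervals (95%) are Clopper-Pearson on the reads of a library pair, exact Poisson for levels, and normal on the log scale for differences of responses. They cover counting error only. Genes averaging 5 RPKM or more were analysed as log2(RPKM + 1), centred on their median, in Python 3.11.15 (scipy 1.17.1). Fold changes on this scale understate the change of low genes. limma 3.58.1 (R 4.3.3) fitted genotype and treatment with a variance trend and Benjamini-Hochberg adjustment over all 9612 genes. A trial run used simulated reads with counting error only and no difference in drug response between genotypes. It therefore cannot show how the test behaves on these data.

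Members and gene lists were chosen with earlier results of these data known. Genes named from a list are its 4 with the highest mean RPKM, plus those that passed limma, and others are marked as chosen after their values were seen. Alternatives varied the pseudocount, the filter, the centring and the limma model.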

Additional observations from a re-analysis of the deposited data

Results flagged for a closer look

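ANKRD37 had erythromycin responses of opposite sign in the genotypes, 0.52 in the mutant and −2.03 in wild type, a difference of 2.54 [2.18, 2.93]. The gene was chosen for moving in the mutant, so the size of this difference is a description. NDRG1 also had opposite signs, with −0.23 in the mutant and 0.82 in wild type and a difference of −1.04 [−1.71, −0.42]. The interval of its mutant response, −0.82 to 0.37, spans 0, so the sign there is not settled. Both genes are listed because the responses had opposite signs and the counting interval of the difference left out 0. The share of all genes that meet both conditions is not given, so nothing is read from how many were listed. With 1 library per group neither difference was tested against replicates, and opposite signs were found for 49.4% of all genes tested. The wild type library with erythromycin, at 114 RPKM, was the lowest of the 4 for ANKRD37.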

How the results depend on the processing

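The 265 recomputed log2 ratios of the 9 genes (45 values under up to 6 alternatives, with P4HA1 left out at a mean of at least 20 RPKM) all stayed within their counting intervals. Of the 45, 42 kept 1 sign throughout, and the 3 that did not had sizes that rounded to 0.01 or less (mutant over wild type with erythromycin for DDIT4 and EGLN1, and erythromycin in wild type for DDIT4). At a pseudocount of 5 RPKM, VEGFA with erythromycin in the mutant came to 0.94 and the NDRG1 difference of responses to −0.97, both within 2-fold.

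Counts of genes at or beyond 2-fold moved with the low end of the data. For the mutant over wild type without erythromycin the count was 827, against 409 with a pseudocount of 5 RPKM, 2458 with no filter and 254 with a mean of at least 20 RPKM. In the same order it was 892, 457, 2218 and 310 for the mutant over wild type with erythromycin, 314, 114, 925 and 107 for erythromycin in wild type, 924, 477, 2922 and 266 for erythromycin in the mutant, and 1338, 758, 3697 and 439 for the difference of responses. limma passed 187 genes for genotype and 24 for erythromycin. These counts became 284 and 68 with a pseudocount of 0.1 RPKM, 341 and 99 with no filter, 54 and 0 with the other factor left out, and 91 and 0 with no variance trend, while for erythromycin 42 passed among genes averaging 20 RPKM or more and 34 with a pseudocount of 5 RPKM. The cause was not tested. At an unadjusted p under 0.05, limma gave 246 genes for erythromycin with genotype left out and 535 with no variance trend. RPL4, BHLHE41, ENO1 and HSP90AB1 did not pass with treatment left out, and all but BHLHE41 did not pass with no variance trend. The shallow mutant libraries limit ADM and P4HA1 most, with 6 to 12 reads each. No paired analysis was possible because the labels link no libraries beyond their groups.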
